A study of Rattus norvegicus with 12 samples.

Results

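The genes described here are 52 genes of DNA replication and of the step from G1 into S phase, given as a list of gene symbols and matched to the array by name. Of the 52, 47 had a probe that the platform table links to that gene alone, and all 47 lay above the filter on dim probes, so all 47 were tested among 10174 genes. Mcm3, Mcm4, Pole2, Chaf1a and E2f2 had no such probe and were not analysed here.

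Livers were taken from Sprague Dawley rat fetuses on gestational day 19, where term is 21 days. The fasted groups were fetuses of dams that went without food for 48 hr from day 17, a model of intrauterine growth restriction, and the fed groups were fetuses of dams fed freely to the same day, with 3 dams a diet. From each diet, polysome RNA (mRNA that sediments with several ribosomes in a sucrose gradient, and so is being translated) and total liver RNA were each hybridised to 3 Affymetrix Rat Gene 1.0 ST arrays labelled as biological replicates, 12 arrays in all. Polysome RNA came from pooled polysome preparations and was extracted with acid phenol and chloroform, whereas total RNA came from frozen liver by guanidine thiocyanate and a cesium chloride gradient, so fraction and extraction cannot be told apart. The sources do not say how many fetuses or livers stand behind an array.

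Before S phase, a cell marks its replication origins with the origin recognition complex (ORC), and Cdc6 and Cdt1 load the ring-shaped MCM2-7 helicase there, a step called licensing. At G1/S, cyclin D and cyclin E kinases release the E2F transcription factors from the retinoblastoma proteins, and E2F target genes, most replication genes among them, are transcribed. The helicase is then completed by Cdc45 and the GINS complex and unwinds the DNA for the polymerases. The liver of a late rat fetus holds dividing hepatoblasts and is also a site of blood formation, with many dividing red cell precursors, so these genes are read here from a mixture of cells.

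The promoters of these genes are known for E2F sites, so the sequence from 250 bases before to 50 bases after each gene's start was searched for the 8-letter E2F consensus, spelled out as TTTCCCGC, TTTCGCGC, TTTGCCGC and TTTGGCGC, on both strands and with overlapping matches counted separately. The start is that of RefSeq's promoter table on the rat assembly GRCr8, which held a promoter for 42 of the 52 genes. At least 1 match stood in 18 of these 42 promoters (42.9%), against 618 of 27457 promoters of all genes (2.25%) and 535 of 18999 of protein coding genes (2.82%). At least 2 matches stood in 8 of the 42 (19%), against 24 of all 27457 (0.0874%). Those 8 were Mcm2, Mcm3, Mcm5, Mcm6, Mcm7, Gins1, Cdt1 and Rfc3. A match is a description of the letters in this window and not a bound site. Orc1, Orc4, Cdc6, Mcm4, Gins4, Rrm2, Ccnd1, Ccne2, E2f1 and E2f2 had no promoter entry.

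Below are 4 promoters with 2 or 3 matches, shown because the results return to these genes: Mcm5 in total RNA and Mcm6 on polysomes had the lowest fasting differences among the MCM genes, and Cdt1 and Rfc3 were higher on polysomes in both diets. For Rfc3 the promoter table's start lies some bases inside the gene's outermost start, and for the other 3 the starts are the same. Each runs 5′ to 3′ along its gene, capitals mark the E2F letters, and overlapping matches on opposite strands form 1 longer run of capitals. They lie at chr19:13488563-13488862 (plus strand, Mcm5), chr13:42404303-42404602 (minus strand, Mcm6), chr19:67528999-67529298 (plus strand, Cdt1) and chr12:5836318-5836617 (plus strand, Rfc3).
Mcm5: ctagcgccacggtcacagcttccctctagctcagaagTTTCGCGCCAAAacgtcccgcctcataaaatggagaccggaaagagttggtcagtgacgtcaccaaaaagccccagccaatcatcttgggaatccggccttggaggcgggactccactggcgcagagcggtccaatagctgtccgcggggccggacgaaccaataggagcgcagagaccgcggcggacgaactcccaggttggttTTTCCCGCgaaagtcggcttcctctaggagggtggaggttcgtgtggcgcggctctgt
Mcm6: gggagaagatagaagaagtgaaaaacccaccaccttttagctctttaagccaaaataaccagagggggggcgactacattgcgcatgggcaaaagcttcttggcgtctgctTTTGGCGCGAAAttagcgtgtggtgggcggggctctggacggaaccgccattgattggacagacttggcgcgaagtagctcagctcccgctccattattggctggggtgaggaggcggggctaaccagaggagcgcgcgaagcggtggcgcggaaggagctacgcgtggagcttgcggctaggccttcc
Cdt1: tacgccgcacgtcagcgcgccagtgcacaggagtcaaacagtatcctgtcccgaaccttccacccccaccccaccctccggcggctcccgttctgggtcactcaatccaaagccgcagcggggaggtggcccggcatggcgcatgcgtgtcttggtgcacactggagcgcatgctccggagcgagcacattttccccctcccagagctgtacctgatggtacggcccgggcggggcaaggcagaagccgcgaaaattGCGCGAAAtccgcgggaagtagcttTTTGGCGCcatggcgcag
Rfc3: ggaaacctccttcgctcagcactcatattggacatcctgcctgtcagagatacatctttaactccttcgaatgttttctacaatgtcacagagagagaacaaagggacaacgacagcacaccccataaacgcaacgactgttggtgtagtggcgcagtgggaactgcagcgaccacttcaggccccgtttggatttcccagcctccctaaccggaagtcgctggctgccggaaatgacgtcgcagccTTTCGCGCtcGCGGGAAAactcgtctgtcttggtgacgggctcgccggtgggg

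Levels below are log2(intensity + 1) of a gene's brightest probe, and differences are limma log2 differences ± SE between means of 3 arrays a group. Adjusted p values are limma's, after Benjamini-Hochberg adjustment over the 10174 genes with a threshold of 0.05. Levels of different probes are not set against each other. Hepatocyte markers were measured throughout (10 of 10 tested), as were 14 of 18 erythroid markers. Correlations between arrays over all 28826 probes were 0.9914 to 0.9961 within a group, 0.9917 to 0.9948 between diets of 1 fraction and 0.9816 to 0.988 between fractions.

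In total RNA of livers from fasted dams, most replication and G1/S genes measured slightly lower than in livers from fed dams, and 1 of them, Orc1, passed the test. In total RNA, 40 of the 47 differences were below 0 (85.1%, against 49.8% of all genes tested), with a median of -0.112 log2, against 0.000675 for all genes. In polysome RNA 35 of 47 were below 0 (74.5%, against 46% of all genes), with a median of -0.0804 against 0.0161, and again only Orc1 passed among the 47. The background was 1.03% of all genes called in total RNA (0.295% called lower) and 2.01% in polysome RNA (0.423% called lower), so 1 of 47 is a share near it. At an unadjusted p under 0.05 there were 11 members in total RNA (23.4%, against 16.2% of all genes) and 13 in polysome RNA (27.7%, against 20.9%). The total and polysome arrays of a diet are likely to share livers, so the fractions are not separate evidence. Of the 47, 30 members were below 0 in both, while Orc3 and Prim1 were above 0 in both. Other filters, scalings, priors and blocks left 38 to 40 members below 0 in total RNA and 31 to 36 in polysome RNA. With 1 array left out at a time, 34 to 42 were below 0 in total RNA, at medians of -0.152 to -0.0791. On polysomes such fits left 32 to 36 below 0, at medians of -0.119 to -0.0634. In whole liver, fewer replicating cells and less of these RNAs per cell cannot be told apart.

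**Figure D1:**
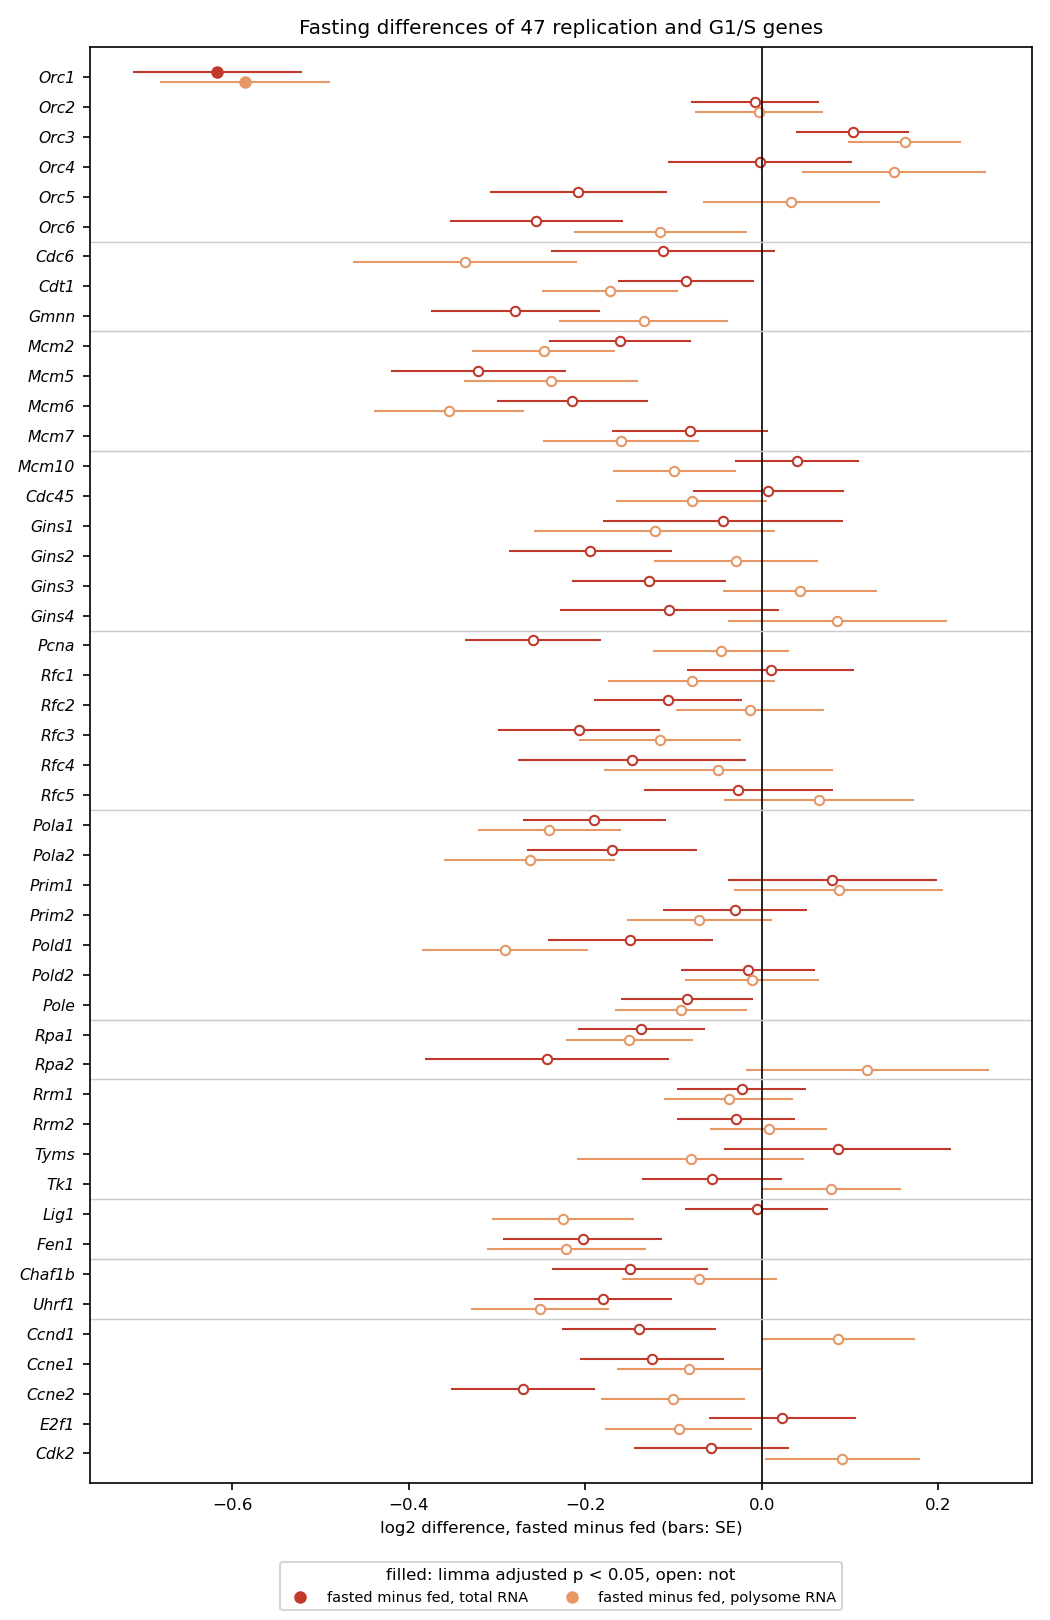
Log2 difference, fasted minus fed, for each of the 47 genes in total RNA and in polysome RNA, grouped by role, with bars for the SE (limma, 3 arrays a group) and filled points for an adjusted p under 0.05. Most points lie a little left of 0, 40 of 47 in total RNA and 35 of 47 in polysome RNA, and Orc1 lies farthest left in both fractions.

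Orc1 encodes the largest subunit of ORC, whose ATPase is needed for licensing. In total RNA its level was 9.39, 9.28 and 9.38 on the 3 arrays from fasted dams, against 10.09, 10.03 and 9.78 on those from fed dams. On polysomes it was 9.39, 9.34 and 9.40 in fasted, against 10.04, 10.07 and 9.78 in fed. Every fasted array lay below every fed array in both fractions, and the fasted arrays lay close together. Orc1 fell by 0.62 ± 0.10 log2 in total RNA, 1.53-fold lower (adjusted p = 0.0129), and by 0.59 ± 0.10 log2 on polysomes, 1.5-fold lower (adjusted p = 0.0173). The call did not survive the loss of every array: the adjusted p in total RNA was 0.0513 without fasted total 1, 0.0596 without fasted total 2 and 0.0649 without fed total 1, at differences of -0.55 to -0.71 over all 12 arrays left out in turn. On polysomes it was 0.0621 without fasted polysome 1, 0.0657 without fasted polysome 3 and 0.0634 without fed polysome 2, at differences of -0.53 to -0.68. In each fraction Orc1 passed in 9 of 12 such fits.

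None of the other ORC subunits passed. Orc3, part of the ORC core, was the highest difference of the 47 in both fractions, and its groups did not overlap in either. In total RNA it was 9.02, 8.99 and 9.03 in fasted livers, against 8.93, 8.95 and 8.86 in fed livers (0.10 ± 0.06 log2, adjusted p = 0.469). On polysomes it was 9.10, 9.01 and 9.03 in fasted, against 8.87, 8.94 and 8.85 in fed (0.16 ± 0.06, adjusted p = 0.172). Orc4, another core subunit, was 8.69, 8.59 and 8.74 on polysomes in fasted, against 8.35, 8.79 and 8.43 in fed, groups that overlapped through fed polysome 2 (0.15 ± 0.10, adjusted p = 0.447). Orc2 differed by -0.01 ± 0.07 in total RNA (adjusted p = 0.973), while Orc5 (-0.21 ± 0.10) and Orc6 (-0.26 ± 0.10) were lower in total RNA without overlap between the groups (adjusted p = 0.329 and 0.219).

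**Figure D2:**
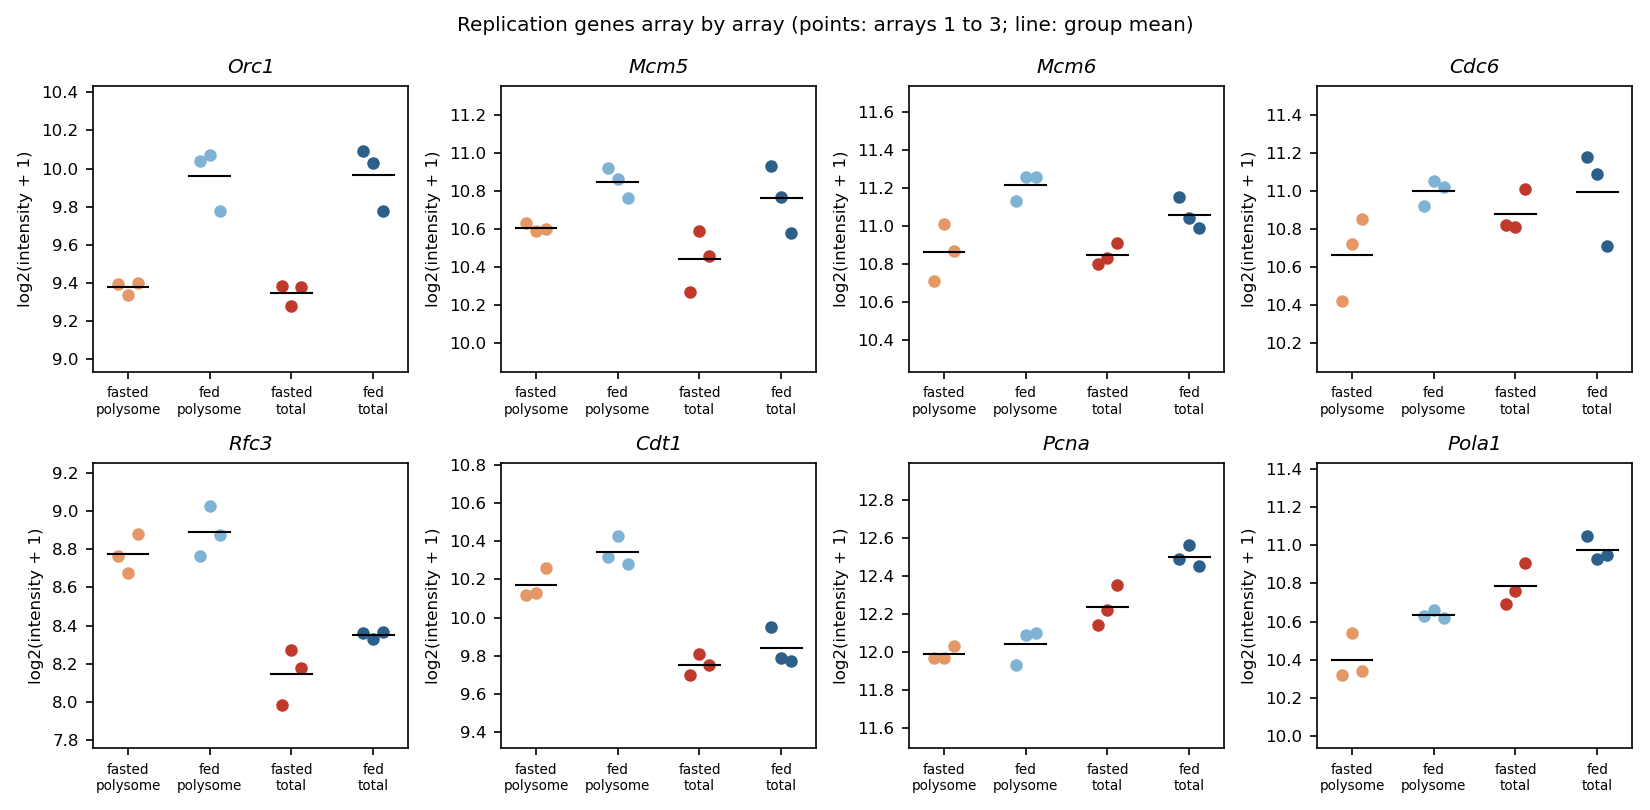
Log2(intensity + 1) on each of the 12 arrays for Orc1, Mcm5, Mcm6, Cdc6, Rfc3, Cdt1, Pcna and Pola1, with polysome left of total RNA, fasted left of fed in each fraction and a line for each group mean. Orc1 is lower in all 6 fasted arrays than in the 6 fed arrays, whereas Rfc3 and Cdt1 are higher, and Pcna and Pola1 lower, in polysome than in total RNA of the same diet.

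The loading factors and the MCM helicase measured lower in fasted livers without passing the test. The loading genes Cdc6 and Cdt1, the gene of the loading inhibitor, Gmnn, and all 4 MCM2-7 genes tested were below 0 in both fractions. Mcm6, a subunit of the helicase ring, was 10.71, 11.01 and 10.87 on polysomes in fasted livers, against 11.13, 11.26 and 11.26 in fed livers, with no overlap (-0.35 ± 0.09 log2, adjusted p = 0.0511). It missed the threshold narrowly and was called when fasted polysome 2 (adjusted p = 0.0196) or fed polysome 1 (0.0357) was left out. These were the only 2 of 12 such fits in which it passed. Over the 12 fits its difference ran from -0.427 to -0.276, with adjusted p up to 0.188. In total RNA Mcm6 differed by -0.21 ± 0.09 (adjusted p = 0.234). Mcm5, another ring subunit, was 10.27, 10.59 and 10.46 in total RNA of fasted livers, against 10.93, 10.77 and 10.58 in fed livers, where fasted total 2 lay just above fed total 3 (-0.32 ± 0.10, adjusted p = 0.129). On polysomes it was 10.63, 10.59 and 10.60 in fasted, against 10.92, 10.86 and 10.76 in fed, with no overlap (-0.24 ± 0.10, adjusted p = 0.19). Mcm2 differed by -0.16 ± 0.08 in total RNA and -0.25 ± 0.08 on polysomes, and Mcm7 by -0.08 ± 0.09 and -0.16 ± 0.09.

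Cdc6, the ATPase that recruits Cdt1 with the helicase, was 10.42, 10.72 and 10.85 on polysomes in fasted, against 10.92, 11.05 and 11.02 in fed, with no overlap (-0.34 ± 0.13, adjusted p = 0.158). In total RNA it was 10.82, 10.81 and 11.01 in fasted, against 11.18, 11.09 and 10.71 in fed, where fed total 3 was the lowest of the 6 arrays (-0.11 ± 0.13, adjusted p = 0.733). Gmnn encodes geminin, which holds Cdt1 back from licensing an origin again. It was 9.84, 9.79 and 10.07 in total RNA of fasted livers, against 10.13, 10.28 and 10.12 in fed livers, with no overlap (-0.28 ± 0.10, adjusted p = 0.173). Cdt1 itself differed by -0.09 ± 0.08 in total RNA and -0.17 ± 0.08 on polysomes (adjusted p = 0.645 and 0.224).

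Among the genes of the fork, the clamp, the polymerases and the Okazaki fragment enzymes were mostly below 0, and none passed. Pcna, the sliding clamp, was 12.14, 12.22 and 12.35 in total RNA of fasted livers, against 12.49, 12.56 and 12.45 in fed livers, with no overlap (-0.26 ± 0.08, adjusted p = 0.116). On polysomes the difference in Pcna was -0.05 ± 0.08 (adjusted p = 0.781). Pola1, the catalytic subunit of polymerase alpha, was lower without overlap in both fractions, by -0.19 ± 0.08 in total RNA and -0.24 ± 0.08 on polysomes (adjusted p = 0.274 and 0.12). Pold1, the catalytic subunit of polymerase delta, differed by -0.29 ± 0.09 on polysomes (adjusted p = 0.108), and Fen1, the flap nuclease of Okazaki fragments, by -0.20 ± 0.09 and -0.22 ± 0.09 in total and polysome RNA. Uhrf1, which carries DNA methylation through replication, differed by -0.18 ± 0.08 and -0.25 ± 0.08 (adjusted p = 0.281 and 0.0983).

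The other genes with the highest differences were Prim1 and Tyms in total RNA and Rpa2 on polysomes. Prim1, the catalytic primase subunit, was 10.91, 10.74 and 10.88 in total RNA of fasted livers, against 10.83, 10.98 and 10.48 in fed livers (0.08 ± 0.12, adjusted p = 0.803). Tyms, which makes thymidylate, was 11.01, 10.83 and 11.08 in fasted, against 10.99, 10.78 and 10.89 in fed (0.09 ± 0.13, adjusted p = 0.806), and on polysomes it differed by -0.08 ± 0.13 (adjusted p = 0.772). In total RNA the groups of both genes overlapped, and Prim1 turned to -0.06 without fed total 3. Rpa2, a subunit of the single-strand binding protein RPA, was 9.69, 9.27 and 9.74 on polysomes in fasted, against 9.72, 9.25 and 9.37 in fed, which also overlapped (0.12 ± 0.14, adjusted p = 0.671). Replicate 2 was the lowest of each polysome group for Rpa2. In total RNA Rpa2 was 8.95, 8.97 and 9.14 in fasted, against 9.41, 9.22 and 9.16 in fed, lower without overlap (-0.24 ± 0.14, adjusted p = 0.419). With fasted polysome 2 and fed polysome 1 both left out Rpa2 on polysomes measured 0.407 log2 and passed (adjusted p = 0.0272). These arrays held its lowest fasted and its highest fed polysome value, and 1263 of all 10174 genes passed in that fit. With 1 array left out at a time, Rpa2 passed in 0 of 12 fits (0.0218 to 0.269 log2, adjusted p from 0.216 to 0.963). The ribonucleotide reductase subunits Rrm1 and Rrm2, which make deoxynucleotides, differed by -0.02 and -0.03 in total RNA and by -0.04 and 0.01 on polysomes, but a second Rrm2 probe measured -0.277 on polysomes and -0.036 in total RNA. E2f1, a transcription factor that drives these genes, differed by 0.02 ± 0.08 in total RNA and -0.09 ± 0.08 on polysomes.

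Among the G1/S cyclins, Ccne2 (cyclin E2, which activates Cdk2) differed by -0.27 ± 0.08 in total RNA without overlap (adjusted p = 0.121) and by -0.10 ± 0.08 on polysomes. Ccnd1 (cyclin D1, partner of Cdk4 and Cdk6) differed by -0.14 ± 0.09 and 0.09 ± 0.09, and Cdk2 by -0.06 ± 0.09 and 0.09 ± 0.09. Counting groups that did not overlap, in total RNA 16 of 47 members were lower (11.9% of all genes) and 1, Orc3, was higher (12.9% of all genes). On polysomes 13 were lower (8.38% of all genes) and 1, again Orc3, was higher (12.4% of all genes). Orc1, Mcm2, Mcm6, Pola1, Fen1 and Uhrf1 were among the lower ones in both fractions.

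The sum of the 47 intensities was 63149 to 69220 on the arrays of total RNA from fasted dams, against 67378 to 73997 from fed dams, so the ranges overlapped. On polysomes the sum was 64952 to 67810 in fasted, against 70450 to 71798 in fed, with no overlap. Members with E2F letters in the promoter (16 tested) had a median fasting difference of -0.144 in total RNA and -0.128 on polysomes, and members whose promoter held none (23 tested) had -0.106 and -0.0704, values given as a description with no test.

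**Figure D3:**
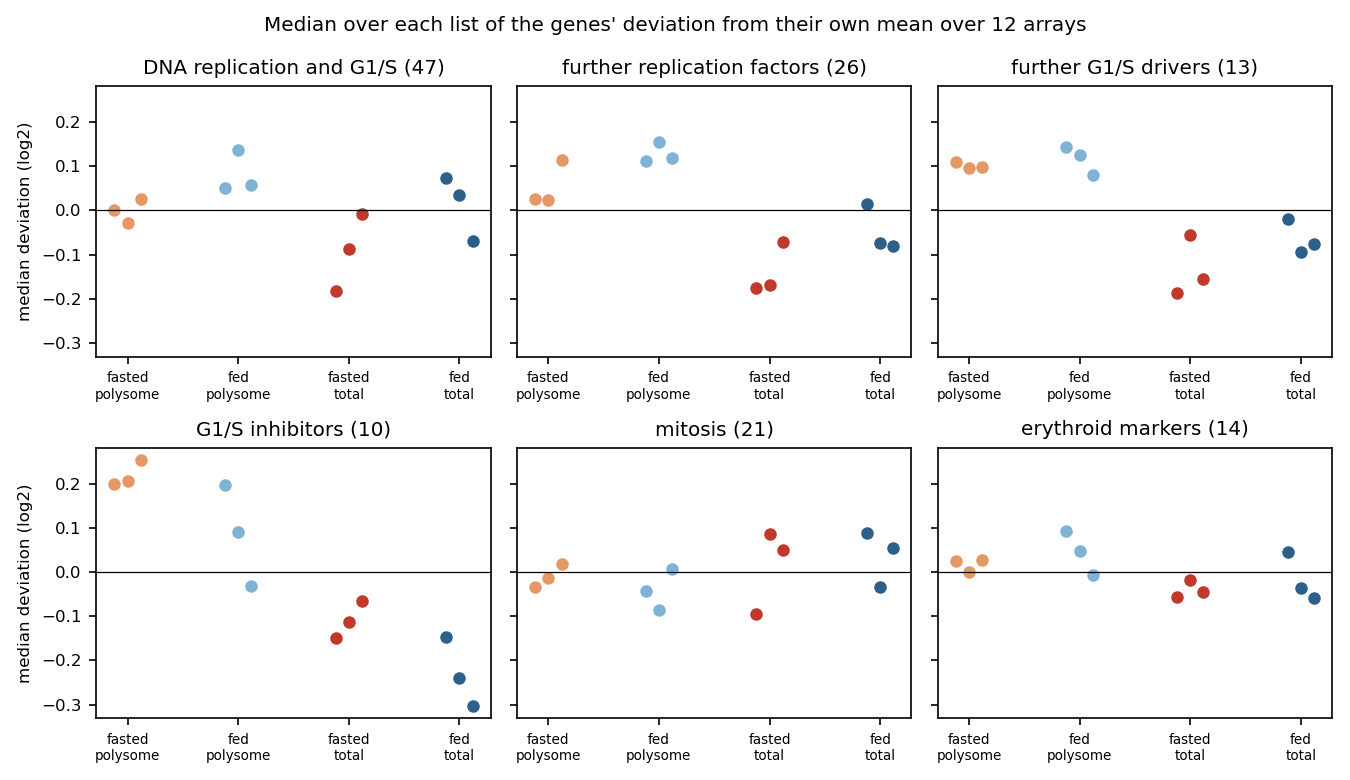
Median, over the genes of a list, of each gene's deviation in log2 from its mean over the 12 arrays, by array, for the 47 members, 26 further replication factors, 13 further G1/S drivers, 10 G1/S inhibitors, 21 mitosis genes and 14 erythroid markers, with polysome left of total RNA and fasted left of fed. The medians of the G1/S inhibitors lie higher in polysome than in total RNA in both diets, and the erythroid medians lie between -0.06 and 0.09.

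The further genes of the pathway did not pass in the fasting comparisons either. Of 38 further replication factors, 26 were tested and none passed in either fasting comparison, with 20 below 0 in total RNA and 18 on polysomes. Of all genes tested, 49.8% were below 0 in total RNA and 46% on polysomes. The lowest adjusted p in total RNA was that of Pold4, a small subunit of polymerase delta, at 0.34 ± 0.09 (adjusted p = 0.0974), which measured 0.30 ± 0.09 on polysomes (0.0978). On polysomes it was that of Timeless, a fork protection factor, at -0.33 ± 0.10 (0.0843). Hells, a chromatin remodeller of replicating cells, differed by -0.39 ± 0.13 and -0.45 ± 0.13 (adjusted p = 0.18 and 0.0895). Of 14 further G1/S drivers, 13 were tested, none passed, and 11 and 8 were below 0. Of 15 G1/S inhibitors, 10 were tested and none passed, but 8 of 10 were above 0 in total RNA and 9 of 10 on polysomes. Cdkn1a, the kinase inhibitor p21, differed by 0.44 ± 0.14 in total RNA and 0.48 ± 0.14 on polysomes (adjusted p = 0.161 and 0.0917), and Rbl2, a retinoblastoma relative that represses E2F targets, by 0.22 ± 0.08 and 0.20 ± 0.08. None of these lists had a called member in limma's test, against 1.03% and 2.01% of all genes. At an unadjusted p under 0.05 there were 26.9% of the further replication factors in each fraction, 7.69% and 15.4% of the further drivers, and 20% of the inhibitors in each fraction. The share of all genes was 16.2% in total RNA and 20.9% on polysomes.

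Markers of other cell types were set beside these values, where 1.03% of all genes were called in total RNA and 2.01% on polysomes. Erythroid markers had 0 of 14 called in either fraction, with summed intensities of 78329 to 80017 in fasted and 78459 to 82478 in fed total RNA, and 78658 to 79640 in fasted and 79641 to 80348 in fed polysome RNA. Hepatocyte markers had 0 of 10 called. Endothelial markers had 3 of 7 higher in total RNA (Pecam1, Esam and Fcgr2b) and 1 of 7 on polysomes, with sums of 6898 to 7019 in fasted and 5487 to 6159 in fed total RNA. On polysomes the endothelial sums were 3918 to 4250 in fasted and 3558 to 3730 in fed, also without overlap. Macrophage markers had 0 of 9 called in total RNA and 2 of 9 higher on polysomes (Cd68 and C1qb), with sums of 5365 to 5473 in fasted and 4479 to 4855 in fed polysome RNA. In total RNA the macrophage sums were 7408 to 8227 in fasted and 6602 to 6908 in fed, also without overlap. Stellate cell markers had 2 of 6 higher on polysomes (Lrat and Dcn). Exocrine pancreas markers summed to 749 to 760 in fasted and 784 to 3192 in fed total RNA, with Cpa1 lower (1 of 6 called). The fed sums differed by array, at 3192 on fed total 1, 784 on fed total 2 and 1362 on fed total 3. Megakaryocyte markers summed to 2615 to 3192 in fasted and 3499 to 3789 in fed polysome RNA, without overlap. In total RNA their sums overlapped between diets. The sums of B lymphoid precursor, neutrophil precursor and cholangiocyte markers overlapped between diets in both fractions. The part of these shifts in the members' values was not tested.

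The fasting effect on polysomes was then compared with that in total RNA, gene by gene, as an interaction of diet and fraction, which asks whether fasting changed how much of an mRNA was on ribosomes. None of the 47 passed in limma, nor did any of the 10174 genes (0% called), and none of the 47 had an unadjusted p under 0.05, against 5.4% of all genes. The median difference of the members was 0.00737 log2. The largest positive values were Rpa2 at 0.36 ± 0.20, Orc5 at 0.24 ± 0.14 and Ccnd1 at 0.23 ± 0.12, and the most negative were Cdc6 at -0.22 ± 0.18, Lig1 at -0.22 ± 0.11 and Tyms at -0.17 ± 0.18, with adjusted p from 0.856 up. For Orc1 it was 0.03 ± 0.14. With a median SE of 0.123 log2 for the members, differences of the size measured for most of them were not detectable.

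Polysome RNA differed from total RNA in far more genes than fasted from fed, and members were called on both sides. In livers of fasted dams, 13 of 47 members were higher and 3 lower on polysomes (34% called, against 43.7% of all genes, of which 25.5% higher and 18.2% lower). In livers of fed dams, 7 were higher and 6 lower (27.7% called, against 43.5% of all genes, of which 24.1% higher and 19.4% lower).  The 13 higher and 3 lower became 14 and 1 when each array was centred on its median, and 9 and 4 after quantile normalization. The diets gave 20 called members between them, 9 in both (Rfc3, Cdt1, Cdc45, E2f1, Pold2 and Ccne1 higher, Pcna, Pola1 and Rrm2 lower) and none in opposite directions. The median difference was 0.0886 in fasted and 0.081 in fed livers, against 0.0544 and 0.0418 for all genes. Since the arrays were scaled to each other, a value says how a gene stood relative to all other mRNAs of its fraction.

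**Figure D4:**
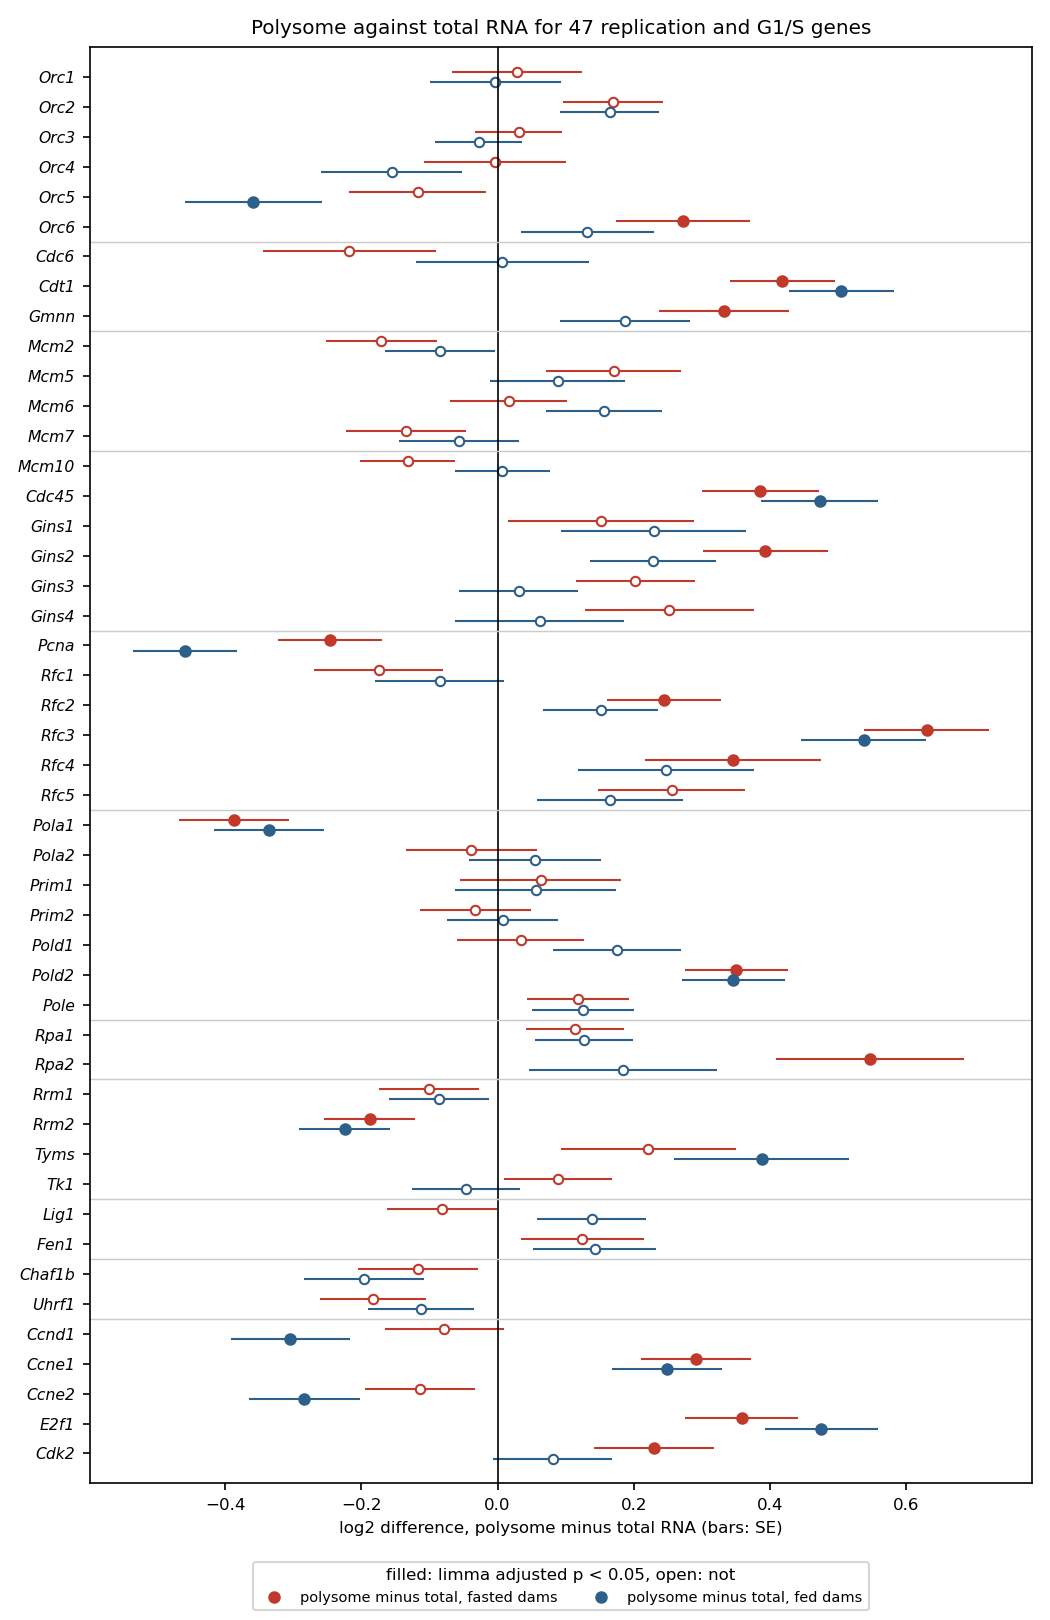
Log2 difference, polysome minus total RNA, for each of the 47 genes in livers of fasted and of fed dams, grouped by role, with bars for the SE (limma, 3 arrays a group) and filled points for an adjusted p under 0.05. Rfc3, Cdt1, Cdc45, E2f1, Pold2 and Ccne1 lie right of 0 and Pcna, Pola1 and Rrm2 left of 0 in both diets.

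The clamp gene and a gene of its loader lay on opposite sides of 0. Rfc3, a small subunit of replication factor C (RFC), the complex that opens the clamp and sets it on DNA, was 8.77, 8.67 and 8.88 on polysomes, against 7.98, 8.27 and 8.18 in total RNA, in livers of fasted dams. In livers of fed dams it was 8.77, 9.03 and 8.87 on polysomes, against 8.36, 8.33 and 8.37 in total RNA. No array overlapped, and Rfc3 was higher on polysomes by 0.63 ± 0.09 log2 in fasted (adjusted p = 0.000127) and 0.54 ± 0.09 in fed livers (adjusted p = 0.000424). Rfc2 and Rfc4, also small subunits, passed in fasted livers at 0.24 ± 0.08 and 0.35 ± 0.13 (adjusted p = 0.0311 and 0.0442). In fed livers they measured 0.15 ± 0.08 and 0.25 ± 0.13, without passing. Rfc5 measured 0.26 ± 0.11 and 0.16 ± 0.11, and the large subunit Rfc1 measured -0.17 ± 0.09 and -0.09 ± 0.09, none of which passed.

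Pcna, the clamp that RFC loads, was 11.97, 11.97 and 12.03 on polysomes, against 12.14, 12.22 and 12.35 in total RNA of fasted livers. In fed livers it was 11.93, 12.09 and 12.10 on polysomes, against 12.49, 12.56 and 12.45 in total RNA. It was lower on polysomes without overlap, by -0.25 ± 0.08 in fasted (adjusted p = 0.0194) and -0.46 ± 0.08 in fed livers (adjusted p = 0.000366). Pola1 was likewise 10.32, 10.54 and 10.34 on polysomes, against 10.69, 10.76 and 10.91 in total RNA of fasted livers. In fed livers Pola1 was 10.63, 10.66 and 10.62 on polysomes, against 11.05, 10.93 and 10.95 in total RNA. Its groups did not overlap, and it was lower by -0.39 ± 0.08 and -0.34 ± 0.08 (adjusted p = 0.00179 and 0.00465). Pold2, the second subunit of polymerase delta, was higher by 0.35 ± 0.08 in each diet (adjusted p = 0.00225 and 0.00247), whereas the catalytic subunit Pold1 measured 0.03 ± 0.09 and 0.18 ± 0.09 and did not pass.

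In the licensing group, Cdt1 was 10.12, 10.13 and 10.26 on polysomes, against 9.70, 9.81 and 9.75 in total RNA of fasted livers. It was 10.32, 10.43 and 10.28 on polysomes, against 9.95, 9.79 and 9.77 in total RNA of fed livers. The fractions did not overlap, and Cdt1 was higher on polysomes by 0.42 ± 0.08 in fasted and 0.50 ± 0.08 in fed livers (adjusted p = 0.000713 and 0.000186). Its inhibitor Gmnn was higher in fasted livers (0.33 ± 0.10, adjusted p = 0.0125) and measured 0.19 ± 0.10 in fed livers (adjusted p = 0.132). None of the 4 MCM2-7 genes tested passed in either diet, nor did Cdc6 (-0.22 ± 0.13 and 0.01 ± 0.13) (limma), and none of these 5 genes had an unadjusted p under 0.05 in either diet. Orc1, the gene that fell with fasting, measured 0.03 ± 0.10 and -0.00 ± 0.10.

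Orc5, a core ORC subunit, was 9.07, 8.96 and 8.79 on polysomes, against 9.26, 9.42 and 9.22 in total RNA of fed livers, without overlap (-0.36 ± 0.10, adjusted p = 0.011). In fasted livers it measured -0.12 ± 0.10 and did not pass. Orc6 was higher on polysomes in fasted livers (0.27 ± 0.10, adjusted p = 0.0372). Of the factors that complete the helicase, Cdc45 was higher in both diets (0.39 ± 0.09 and 0.47 ± 0.09, adjusted p = 0.00266 and 0.00066) and Gins2 in fasted livers (0.39 ± 0.09, adjusted p = 0.00381). Rpa2 was 9.69, 9.27 and 9.74 on polysomes, against 8.95, 8.97 and 9.14 in total RNA of fasted livers, without overlap (0.55 ± 0.14, adjusted p = 0.00589). It measured 0.18 ± 0.14 in fed livers (adjusted p = 0.305), and the difference between diets did not pass, as given above.

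Of the G1/S regulators, E2f1 was 9.61, 9.39 and 9.54 on polysomes, against 9.04, 9.16 and 9.27 in total RNA of fasted livers. In fed livers E2f1 was 9.64, 9.67 and 9.51 on polysomes, against 9.10, 9.18 and 9.11 in total RNA. Without overlap in either diet, it was higher by 0.36 ± 0.08 and 0.48 ± 0.08 (adjusted p = 0.00355 and 0.000518). Of the cyclin E genes, Ccne1 was higher in both diets (0.29 ± 0.08 and 0.25 ± 0.08, adjusted p = 0.0107 and 0.0244), and Ccne2 was lower in fed livers (-0.28 ± 0.08, adjusted p = 0.0124) and measured -0.11 ± 0.08 in fasted livers. Ccnd1 was lower in fed livers (-0.30 ± 0.09, adjusted p = 0.0123). Cdk2 passed narrowly in fasted livers (0.23 ± 0.09, adjusted p = 0.049) and not with the replicate number as a block (adjusted p = 0.0626).

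Of the nucleotide enzymes, Rrm2 was 12.75, 12.66 and 12.68 on polysomes, against 12.84, 12.87 and 12.95 in total RNA of fasted livers (-0.19 ± 0.07, adjusted p = 0.0352). In fed livers it was 12.73, 12.69 and 12.65 on polysomes, against 12.98, 12.88 and 12.89 in total RNA (-0.22 ± 0.07, adjusted p = 0.0148). The fractions did not overlap, but a second Rrm2 probe, dimmer on average, measured 0.0961 in fasted and 0.337 in fed livers, so the direction for Rrm2 depends on the probe. Tyms was higher in fed livers (0.39 ± 0.13, adjusted p = 0.0263) and measured 0.22 ± 0.13 in fasted livers.

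Leaving out each of the 12 arrays in turn, 9 of the 16 calls in fasted livers and 7 of the 13 in fed livers passed every time. In fasted livers the calls for Cdk2, Rfc2, Rfc4, Orc6, Gmnn, Pcna and Rrm2 were each lost without some array, and fasted polysome 3 (10 members called without it, 8 of them higher) and fasted total 3 (1 member called lower without it) moved the counts most. Without fasted total 3, Pcna measured -0.19 (adjusted p = 0.0864) and Rrm2 -0.15 (0.122), and without fasted polysome 1 Pcna measured -0.24 (0.0539). Gmnn was lost without fasted total 2 (0.278, adjusted p = 0.056) or fasted polysome 3 (0.245, 0.0674). Orc6 was lost without fasted total 1 or 3 or fasted polysome 1 or 3 (adjusted p up to 0.154), and Rfc2 without these or fasted total 2 (up to 0.143). Rfc4 was lost without fasted total 1 or 3, fed total 2, fasted polysome 2 or 3 or fed polysome 2 (up to 0.161). Rrm2 was also lost without fasted total 2 or fasted polysome 2 or 3 (up to 0.0959), and Cdk2 without any array but fasted total 2, fasted polysome 2 and fed polysome 2 or 3 (up to 0.161).

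In fed livers 6 calls were lost in this way. Tyms was lost without fed polysome 3 (0.23, adjusted p = 0.117), fed total 2 (0.0891) or fed total 3 (0.0617), and Orc5 without fed polysome 3 (-0.285, 0.0502) or fed total 2 (0.051). Ccne1 was lost without fed total 2, fed total 3 or fed polysome 2 (adjusted p = 0.0517, 0.0827 and 0.0843), and Ccne2 without fed polysome 3 (0.0529). Ccnd1 was lost without fed total 1 or fed polysome 2 (0.0513 and 0.0601), and Rrm2 without fed total 1 (-0.19, 0.0672). Without fed total 3 the median of the 47 members in fed livers was 0.00263 log2.

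In the further lists, the counts called on polysomes stand beside 25.5% higher and 18.2% lower of all genes in fasted livers and 24.1% higher and 19.4% lower in fed livers. Of the 26 further replication factors tested, 13 were higher and none lower in fasted livers, and 9 were higher and 2 lower in fed livers. Rpa3, the smallest RPA subunit, was higher by 1.37 ± 0.14 and 1.16 ± 0.14 (adjusted p = 7.5e-06 and 2.69e-05), Pole4, a small subunit of polymerase epsilon, by 0.74 ± 0.08 and 0.80 ± 0.08, and Pold4 by 0.66 ± 0.09 and 0.70 ± 0.09. Of the 13 further G1/S drivers, 6 and 5 were higher and none lower, led by Cks1b, a partner of the cell cycle kinases, at 0.84 ± 0.07 and 0.64 ± 0.07. Of the 10 G1/S inhibitors tested, 7 and 5 were higher and none lower. In the same comparisons all 6 stellate and fibroblast markers were lower on polysomes in both diets, as were 7 of 7 endothelial markers in fasted and 6 of 7 in fed livers, and 7 and 6 of 9 macrophage markers. Of 10 hepatocyte markers, 6 were lower and 1 higher in fasted and 5 lower and 1 higher in fed livers, and of 14 erythroid markers 3 were higher and 2 lower in fasted and 4 higher and 2 lower in fed livers. The part of these shifts in the members' values was not tested.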

How the data were processed

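The authors deposited 1 intensity per probe and array, summarised by RMA per the submitters' processing notes (RMA version: not given in the sources used here). The values are on a linear scale, so log2(intensity + 1) was used. Depth has no meaning for arrays, and their number limits the precision. Of 28826 probes, 15209 had exactly 1 gene symbol in the platform's annotation, 306 had several and 13311 were not listed. Of the 15209, 15178 had an Entrez identifier found in RefSeq and took the RefSeq symbol, whether or not it differed. The brightest probe stood for a gene. Genes whose mean was at or above the 40th percentile of all probes (6.07 log2) were tested, 10174 of 14497.

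All 12 arrays entered a single limma fit (version 3.58.1, R 4.3.3) with a mean for each of the 4 groups, and eBayes moderated the variances (degrees of freedom 8 residual, 5.16 prior). The p values are two-sided, with Benjamini-Hochberg adjustment over the genes tested. The method was tested on simulated data, with arrays drawn independently and 50 genes changed at each size in fasted total RNA. It called 48% of the 1.3-fold, 88% of the 1.5-fold and 100% of the 2-fold changes. The labels call the 3 arrays of a group biological replicates and give 3 dams a diet, with no word on what a number marks. Deviations from the group means correlated at 0.154 to 0.362 between total and polysome arrays of the same number and diet (6 pairs). Between total and polysome arrays of the same diet but different numbers the correlations were -0.219 to -0.0227 (12 pairs). Between fasted and fed arrays of 1 fraction and the same number they were -0.145 to 0.253 (6 pairs). Total and polysome arrays of 1 diet and number are therefore likely to share a liver, an inference from these data. The p values in the report come from the fit without this pairing, and fits with it are among the alternatives. Alternatives were other filters, scalings, pseudocount, probes, priors, arrays and blocks. Liver as a fixed block was added after the data were seen.

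The genes, companion lists and cell type markers were chosen with earlier results of these data known. Values on each array are given for members called in a fasting comparison, for the 3 largest rises and falls in each fasting comparison and, among called members whose groups did not overlap, in each comparison of polysome with total RNA. Of a companion list, at most the 4 members with the smallest adjusted p a comparison are named. Promoters and chromosome positions are RefSeq's on GRCr8.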

Additional observations from a re-analysis of the deposited data

How the results depend on the processing

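In the fasting comparison on polysomes, 2 members passed in place of 1 with a filter at the 60th percentile, with quantile normalization and with trend and robust priors, where Mcm6 joined Orc1 (adjusted p = 0.0371, 0.0442 and 0.0321), and 7 passed with fed polysome 1 and fasted polysome 2 left out together, where 1263 of all 10174 genes passed. The cause was not tested. Of the calls in fasted livers on polysomes, the 3 lower members became 1 with arrays centred on their median and 5 with those 2 arrays left out, and the median of the members became 0.032 with quantile normalization. With the mean of a gene's probes, Rrm2 measured 0.0563 log2 in fed livers in place of a lower value, and the mean includes the second probe described above. Leaving out 1 array at a time gave 0 to 1 members called for fasting in total RNA, 0 to 6 on polysomes (6 without fasted polysome 2, where 755 of all genes passed), and 10 to 18 called (8 to 14 higher, 1 to 4 lower) for polysome against total RNA in fasted livers, and in fed livers a median of 0.00263 (without fed total 3) to 0.132. Only the members called or with the largest differences were followed singly, as 48 values. Over their alternative fits, 1058 results stayed on the same side of the threshold, 67 no longer passed, 7 newly passed and 1 called value turned. A value called in neither fit counts among the 1058 even where its sign changed. Prim1 in total RNA, at -0.059 without fed total 3, is such a value. With a replicate block, 1 and 1 members were called in the fasting comparisons in total and polysome RNA, 0 in their difference, and 15 and 15 for polysome against total RNA in fasted and fed livers. That block ended the call of Cdk2 in fasted livers and added Gins2 and Chaf1b in fed livers. Liver as a random block gave 1, 1, 0, 19 and 16. Over all alternatives limma called 17 to 199 of all genes for fasting in total RNA, 11 to 1263 on polysomes and 0 to 2 for the difference. All 47 members passed the filter on dim probes at the 40th percentile, and each group had 3 arrays.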

Other observations

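Genes of mitosis, the phase that follows replication, were measured beside the replication genes, from a list of 24 of which 21 were tested. In livers of fasted dams none passed in total RNA (limma, and none at an unadjusted p under 0.05), with 11 of 21 below 0, where 1.03% of all genes passed and 49.8% were below 0. On polysomes 1 passed, Nusap1, a protein of the spindle microtubules, which was higher by 0.39 ± 0.08 log2 (adjusted p = 0.0417), and 5 of 21 were below 0, where 2.01% of all genes passed and 46% were below 0. Cdc20, the activator of the anaphase promoting complex, was lower on polysomes than in total RNA by -0.65 ± 0.15 in fasted and -1.02 ± 0.15 in fed livers (adjusted p = 0.00371 and 0.000161). Of the 21, 5 were higher and 3 lower on polysomes in fasted livers, and 3 were higher and 5 lower in fed livers. These are 38.1% in each diet, against 43.7% and 43.5% of all genes. Cenpa, the histone of centromeres, was higher by 0.38 ± 0.08 and 0.29 ± 0.08 (adjusted p = 0.00137 and 0.0078).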
